A study of Homo sapiens with 6 samples.

Results

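The genes described here encode enzymes that activate, desaturate and re-esterify long-chain fatty acids. They are the rows of the deposited table whose symbol is ACSL1, ACSL3, ACSL4, ACSL5, SCD, FADS1, FADS2, LPCAT3, MBOAT1 or MBOAT2, and all 10 were found among 61806 gene rows. The cells were HCT116, a human colorectal carcinoma line, and each of the 6 RNA-seq libraries is of this line. In 3 libraries (si-NC) the cells had received a control short interfering RNA and are labelled wildtype. In the other 3 (si-STRIP2) they had received a short interfering RNA against STRIP2, a scaffold protein of the STRIPAK assembly, which holds kinases and phosphatases. The series title links STRIP2 to LCN2 and to ferroptosis, so the comparison bears on the RNA of lipid enzyme genes after STRIP2 is lowered. Protein, enzyme activity, lipids and cell death are not measured by these libraries. Only transient knockdown in 1 cell line was examined, and the labels do not say how many siRNA sequences were used. Nor do they state whether replicate libraries trace to different culture dishes, so p-values measure the spread between these libraries, which may be technical.

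Ferroptosis is cell death by iron-dependent peroxidation of membrane phospholipids, and polyunsaturated acyl chains are the part that oxidises. A fatty acid enters a phospholipid after an acyl-CoA synthetase has joined it to coenzyme A and a lysophospholipid acyltransferase has moved it onto the glycerol backbone. Desaturases set which chains are on offer: SCD makes monounsaturated chains, and FADS1 and FADS2 add double bonds to polyunsaturated precursors from the diet. ACSL4 and LPCAT3 are known for handling polyunsaturated chains and favouring ferroptosis, while ACSL3, SCD, MBOAT1 and MBOAT2 are known for handling monounsaturated chains and opposing it.

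Knockdown and library quality were checked first. STRIP2 fell from 3.59 ± 0.347 to 2.61 ± 0.0929 FPKM (SD, n = 3), so that 72.6% of its control level was left (edgeR log2 fold change -0.46 ± 0.083, SE; adjusted p = 1.62e-05). At least 24.1% of all genes tested had a larger absolute log2 fold change than STRIP2, so its fall was partial and did not stand out. Total counts lay between 17184963 and 21721218 per library. The share of counts from mitochondrial genes ranged from 4.88% to 8.88% in si-NC and from 5.73% to 6.30% in si-STRIP2. Of 11 markers of colorectal epithelium, 6 had a mean of at least 1 FPKM (CDH1, CDX2, EPCAM, KRT8, KRT18 and KRT19). CDH17, CDX1, KRT20, LGALS4 and VIL1, markers of differentiated enterocytes or of intestinal identity, were below it. The summed FPKM of the 11 was 691.25 to 721.52 in si-NC and 667.97 to 691.48 in si-STRIP2. None of the 6 leukocyte, 4 endothelial, 4 adipocyte or 4 hepatocyte markers reached 1 FPKM. Among the 7 fibroblast markers only COL1A1 did, and their sum was 2.23 to 2.68 in si-NC and 1.94 to 2.2 in si-STRIP2, with 2 of the 7 at 0 in every library. The endothelial sum was 0.37 to 0.46 in si-NC and 0.16 to 0.23 in si-STRIP2, so all 4 of those markers were near 0 in both groups.

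The sequence before the start is shown for 1 desaturase, 1 acyltransferase and 1 synthetase, to let the range of these promoters be seen. SCD and LPCAT3 carry several copies of general promoter motifs, and the ACSL5 window carries none of those searched, as do the second ACSL5 window, 1 window of FADS2 and 2 of ACSL1. No relation between motifs and expression was tested. The sequences are from RefSeq on GRCh38.p14 and hold the 250 bases before the annotated transcript start, on the gene's own strand. Capitals mark matches, on either strand, to a CCAAT box (CCAAT), a GC box (GGGCGG), a sterol regulatory element (TCACNCCAC) or an AP-1 site (TGANTCA). The SCD window is chr10:100346983-100347232 on the plus strand, the LPCAT3 window is chr12:7018477-7018726 on the minus strand, and the ACSL5 window is chr10:112375018-112375267 on the plus strand.
SCD: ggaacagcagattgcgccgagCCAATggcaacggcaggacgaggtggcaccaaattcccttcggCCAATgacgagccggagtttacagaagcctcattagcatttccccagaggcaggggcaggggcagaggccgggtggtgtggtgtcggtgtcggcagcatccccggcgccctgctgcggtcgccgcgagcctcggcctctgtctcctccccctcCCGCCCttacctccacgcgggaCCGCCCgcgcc
LPCAT3: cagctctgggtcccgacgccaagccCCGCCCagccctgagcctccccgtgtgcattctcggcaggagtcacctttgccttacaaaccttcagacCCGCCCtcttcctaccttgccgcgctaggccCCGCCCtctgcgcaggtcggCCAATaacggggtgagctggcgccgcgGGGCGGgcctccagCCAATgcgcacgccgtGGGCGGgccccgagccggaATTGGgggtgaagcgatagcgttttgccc
ACSL5: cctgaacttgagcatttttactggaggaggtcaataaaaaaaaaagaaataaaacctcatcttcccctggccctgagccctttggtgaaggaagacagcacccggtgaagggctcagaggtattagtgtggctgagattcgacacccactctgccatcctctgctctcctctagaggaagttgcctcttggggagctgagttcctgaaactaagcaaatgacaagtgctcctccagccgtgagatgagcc

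The SCD window ended just before the base where the deposited table starts the gene. Its CCAAT boxes began 229 and 186 bases before the start, and its GC boxes 33 and 11 bases before it. LPCAT3 had 3 CCAAT boxes, at 105, 64 and 29 bases, and 5 GC boxes. Neither ACSL5 window held a match, and the window printed above lies before a start that is 1152 bases inside the gene as the table draws it. RefSeq windows were found for 9 of the 10 genes, 15 windows in all, with 5 starts for ACSL1 and a pair each for ACSL5 and FADS2. A CCAAT box occurred in 4 of the 15 windows, from 4 genes, and in 32.0% of all 35116 promoter windows of the same length. The GC box occurred in 9 of the 15 windows, from 8 genes, and in 42.6% of all windows. A sterol regulatory element was found in 1 of the 15, a window of ACSL1, and in 0.883% of all windows. The AP-1 site was also found in 1 of the 15, another window of ACSL1, and in 6.57% of all windows. These are matches of letters, and binding was not measured.

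**Figure D1:**
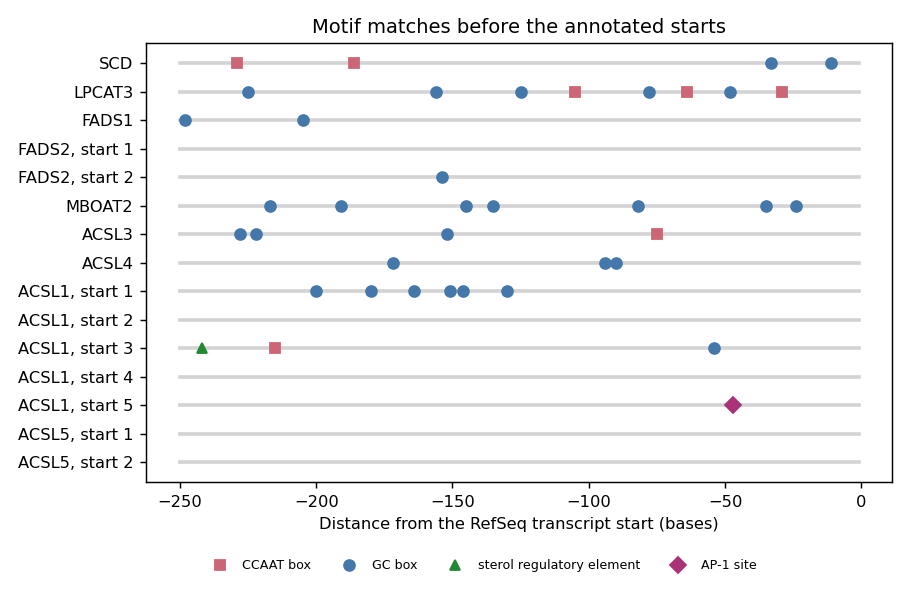
Positions of motif matches in the 250 bases before each RefSeq transcript start of 9 of the genes (x axis, bases from the start; each grey line is 1 window; symbols mark the first letter of a match). LPCAT3 has 3 CCAAT boxes and SCD has 2, whereas both ACSL5 windows are empty.

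All 10 genes passed the filter on low counts, with 194 to 38540 counts per library, and all 10 were called between si-STRIP2 and si-NC. Of these, 9 fell and MBOAT1 rose. Background matters for this count, because 54.8% of the 15687 genes tested were called at an adjusted p under 0.05 (27.0% lower and 27.8% higher). The median log2 fold change of the 10 genes was -0.25, beside 0.014 over all genes tested. Most of the changes were small: 6 genes changed by less than 1.2-fold, and the changes of ACSL5 and MBOAT1 alone exceeded 0.38, the median absolute log2 fold change of all called genes. In a test against a change of 1.2-fold (glmTreat of edgeR), 3 of the 10 passed, namely ACSL5, MBOAT1 and ACSL4, and 23.7% of all tested genes did. The FPKM ranges of the groups did not overlap for any of the 10 genes, a property shared by 58.6% of tested genes. In bulk RNA, less RNA per cell cannot be told apart from fewer cells that express a gene.

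**Figure D2:**
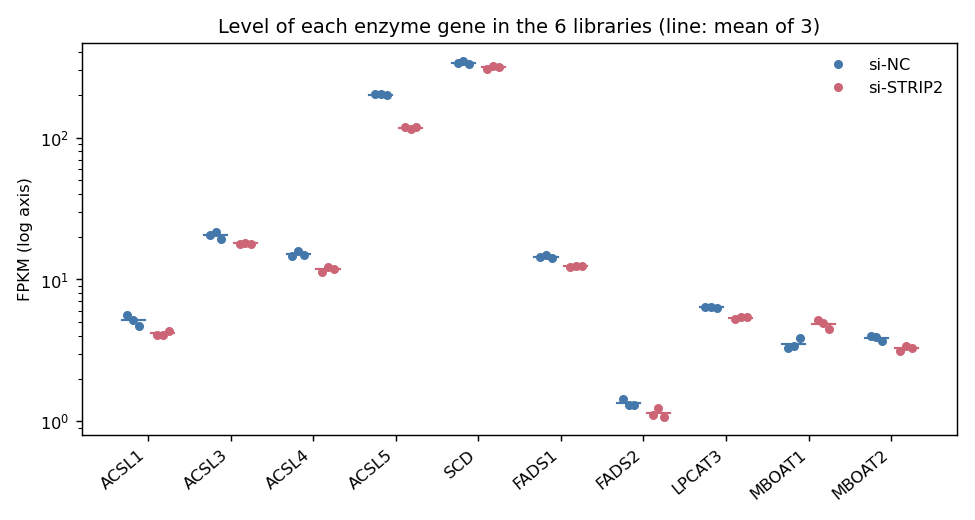
FPKM of the 10 genes in each of the 6 libraries (y axis, log scale; points are libraries, blue for si-NC and red for si-STRIP2; lines are means of 3). SCD and ACSL5 lie above 100 FPKM in every library, and MBOAT1 is the gene whose red points lie above its blue ones.

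Of the 4 acyl-CoA synthetases all fell, ACSL5 by the most of the 10 genes and ACSL3 by less than any other but SCD. ACSL5 (ENSG00000197142, chromosome 10, 112374116 to 112428379, plus strand; coordinates here and below are those of the deposited table) encodes the isozyme typical of intestinal epithelium, found on mitochondria and endoplasmic reticulum. It had 202.30, 204.24 and 199.03 FPKM in the si-NC libraries and 119.63, 114.41 and 118.51 FPKM in the si-STRIP2 libraries. Every si-STRIP2 library was thus far below every control, and the spread within a group was at most 2.34% of its mean. The level left was 58.2% of control, a log2 change of -0.78 ± 0.042 by edgeR (SE; adjusted p = 3.75e-17). Among 302 tested genes with at least 100 FPKM in control cells, 9 had a lower log2 fold change than ACSL5. That set was chosen by the control level alone, which favours falls, so the rank is a description. In FPKM the fall of ACSL5 was 84.3, and 23 tested genes lost more, a rank that depends on its high level. ZDHHC6, on the other strand at the end of ACSL5, held 27.7% as many counts and shared 8.64% of the exonic bases of ACSL5 in GENCODE 29. It rose slightly, by 0.14 ± 0.040 on the log2 scale (SE; edgeR adjusted p = 0.00345), and the part of shared reads in the value of ACSL5 was not tested.

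ACSL4 (ENSG00000068366, chromosome X, 109624244 to 109733403, minus strand), which activates arachidonic and adrenic acid, had 14.67, 15.95 and 14.78 FPKM in si-NC. In si-STRIP2 it had 11.35, 12.22 and 11.90 FPKM, all below the lowest control. By edgeR the log2 change was -0.36 ± 0.043 (SE; adjusted p = 1.17e-08), and the test against 1.2-fold gave an adjusted p of 0.0208. ACSL3 (ENSG00000123983, chromosome 2, 222860942 to 222944639, plus strand), the isozyme of the endoplasmic reticulum and lipid droplets, changed less. It had 20.67, 21.59 and 19.41 FPKM in si-NC and 17.91, 18.17 and 17.88 FPKM in si-STRIP2. This amounted to -0.20 ± 0.041 in log2 change (SE; edgeR adjusted p = 0.000122).

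ACSL1 (ENSG00000151726, chromosome 4, 184755595 to 184826818, minus strand), the main isozyme of fat, liver and heart, was the least abundant of these 4 synthetases. Its FPKM was 5.61, 5.17 and 4.66 in si-NC and 4.06, 4.09 and 4.35 in si-STRIP2. The control libraries spread more than those of any other of the 10 genes, with a coefficient of variation of 9.24%, and the gap between the groups was narrow. On the log2 scale edgeR gave -0.31 ± 0.071 (SE; adjusted p = 0.000333). ACSL6, the remaining family member and a gene of brain, was close to absent at 0.070 FPKM in si-NC and 0.047 in si-STRIP2 (edgeR adjusted p = 0.136).

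**Figure D3:**
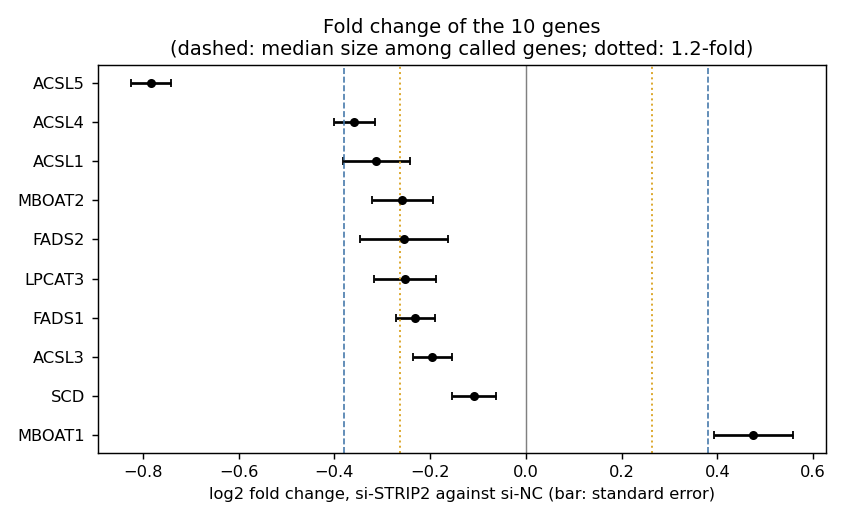
The log2 fold change of each gene between si-STRIP2 and si-NC (x axis; points are edgeR estimates, bars are standard errors). Dashed lines mark the median absolute log2 fold change of all called genes, 0.38, which only ACSL5 and MBOAT1 pass, and dotted lines mark a 1.2-fold change.

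ACSL5 held most of the summed level of its family in both groups. The summed FPKM of ACSL1, ACSL3, ACSL4, ACSL5 and ACSL6 was 243.32, 247.02 and 237.95 in si-NC and 152.99, 148.94 and 152.69 in si-STRIP2, which is 62.4% of control. In si-NC, ACSL5 held 83.2% ± 0.481 of the sum, and after STRIP2 knockdown 77.5% ± 0.692 (SD, n = 3). ACSL3 went from 8.46% ± 0.293 to 11.9% ± 0.284 and ACSL4 from 6.23% ± 0.215 to 7.81% ± 0.393, although the FPKM of both genes fell. The size of each share depends on the deposited exonic lengths. These were 14436 bases for ACSL3 and 9971 for ACSL4, against 7240 and 6415 in GENCODE 29, and shorter lengths would raise their shares. The ratio of ACSL4 to ACSL3 was 0.710, 0.739 and 0.761 in the si-NC libraries and 0.634, 0.673 and 0.666 in the si-STRIP2 libraries. The difference in log2 ratio, si-STRIP2 minus si-NC, was -0.16, without overlap between the groups (exact permutation test, 2-sided, p = 0.1, which is the smallest that 3 against 3 allows, and 0.25 after adjustment over the 5 pairs of genes compared).

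The 3 desaturases fell, SCD by the least of the 10 genes and FADS1 and FADS2 by about as much as LPCAT3 and MBOAT2. SCD (ENSG00000099194, chromosome 10, 100347233 to 100364826, plus strand), which makes oleate and palmitoleate from saturated chains, was the most abundant of the 10 genes. It had 338.28, 346.93 and 329.28 FPKM in si-NC and 306.29, 320.28 and 316.15 FPKM in si-STRIP2. The highest si-STRIP2 library lay just below the lowest control, and the si-STRIP2 mean was 92.9% of the control mean. A log2 change of -0.11 ± 0.046 (SE) made the call marginal (edgeR adjusted p = 0.0453). It was lost when any single library other than si-NC 3 was left out, with edgeR adjusted p from 0.0760 to 0.212, and with the replicate number as a block (edgeR adjusted p = 0.0897). The pseudogene SCDP1 held 0.0101% as many counts as SCD.

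FADS1 and FADS2 are neighbours that start head to head and overlap on opposite strands: the RefSeq start of FADS1 lies 599 and 800 bases downstream of the 2 starts of FADS2. FADS1 (ENSG00000149485, chromosome 11, 61799627 to 61829318, minus strand), which performs the later desaturation step on the way to arachidonic and eicosapentaenoic acid, had 14.50, 14.95 and 14.09 FPKM in si-NC. In si-STRIP2 it had 12.31, 12.51 and 12.36 FPKM, a tight group below all controls. By edgeR the log2 change was -0.23 ± 0.041 (SE; adjusted p = 1.08e-05).

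FADS2 (ENSG00000134824, chromosome 11, 61792980 to 61867354, plus strand), the enzyme of the first desaturation step, was the lowest of the 10 genes. It had 1.44, 1.3 and 1.31 FPKM in si-NC and 1.11, 1.24 and 1.07 FPKM in si-STRIP2, from 194 to 330 counts. The closest libraries of the groups differed by little, and edgeR put the log2 change at -0.26 ± 0.092 (SE; adjusted p = 0.0193). The call was lost without si-NC 1, si-STRIP2 1 or si-STRIP2 3 (edgeR adjusted p = 0.123, 0.0718 and 0.0793) and under DESeq2 (adjusted p = 0.0584). FADS1 held 10.5 times as many counts, and FEN1, which overlaps the first bases of FADS2 as the table draws it, on the same strand, rose by 0.66 ± 0.045 on the log2 scale (SE; edgeR adjusted p = 2.03e-14). In GENCODE 29, 4.44% of the exonic bases of FADS2 were shared with genes on the other strand and 0.444% with genes on its own strand. The kit keeps strand, but whether counting used it is not given in the sources used here, and the part of shared reads in these values was not tested.

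The ratio of FADS2 to FADS1 was 0.0931 ± 0.00618 in si-NC, next to 0.0920 ± 0.00646 in si-STRIP2 (SD, n = 3), and the ranges overlapped (exact permutation test, 2-sided, p = 0.7, adjusted 0.875). SCD held 95.5% ± 0.0170 of the summed FPKM of the 3 desaturases in si-NC and 95.9% ± 0.0624 in si-STRIP2. The ratio of SCD to FADS2 was 234.9 to 266.9 in si-NC and 258.3 to 295.5 in si-STRIP2, again with overlap (exact permutation test, 2-sided, p = 0.2, adjusted 0.333).

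The acyltransferases split. MBOAT1 (ENSG00000172197, chromosome 6, 20099684 to 20212469, minus strand), which puts oleate onto lysophosphatidylethanolamine and lysophosphatidylserine, was the gene that rose. It had 3.31, 3.38 and 3.85 FPKM in si-NC, from 311, 253 and 286 counts, and 5.18, 4.95 and 4.50 FPKM in si-STRIP2, from 421, 374 and 335 counts. All si-STRIP2 libraries were above all controls, at 139% of the control mean. This amounted to 0.47 ± 0.083 in log2 change (SE; edgeR adjusted p = 9.68e-06). No overlapping gene had a count in any library.

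LPCAT3 (ENSG00000111684, chromosome 12, 6976185 to 7018477, minus strand), which puts arachidonate and linoleate onto lysophosphatidylcholine and lysophosphatidylethanolamine, fell. Its FPKM was 6.44, 6.36 and 6.34 in si-NC and 5.25, 5.42 and 5.44 in si-STRIP2, with a wide gap relative to the spread. On the log2 scale edgeR gave -0.25 ± 0.065 (SE; adjusted p = 0.00135). Genes on the other strand shared 65.6% of its exonic bases in GENCODE 29, and EMG1, the one with most counts, held 129% as many counts. For EMG1 edgeR gave 0.012 ± 0.064 (log2, SE; adjusted p = 0.890), and the part of reads shared with it in the value of LPCAT3 was not tested. MBOAT2 (ENSG00000143797, chromosome 2, 8852690 to 9003709, minus strand), which puts oleate onto lysophosphatidylethanolamine and lysophosphatidylcholine, overlapped no other gene. It had 4.02, 3.93 and 3.71 FPKM in si-NC and 3.15, 3.38 and 3.26 FPKM in si-STRIP2, without overlap. By edgeR the log2 change was -0.26 ± 0.064 (SE; adjusted p = 0.000838).

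Summed over these 3 acyltransferases, the level was 13.77, 13.67 and 13.90 FPKM in si-NC and 13.58, 13.75 and 13.20 FPKM in si-STRIP2, so the ranges of the sums overlapped while each member's did not. These sums, and the shares below, rest on the deposited exonic lengths. For MBOAT1 that length was 4325 bases, against 1794 in GENCODE 29, and a shorter length would give MBOAT1 more weight. Sums with GENCODE 29 lengths were not computed, so a flat total is not established. The share held by MBOAT1 was 25.5% ± 1.95 in controls and 36.1% ± 2.03 after knockdown (SD, n = 3). LPCAT3 went from 46.3% ± 0.610 to 39.8% ± 1.31 and MBOAT2 from 28.2% ± 1.34 to 24.2% ± 0.835. The ratio of MBOAT1 to MBOAT2 was 0.823, 0.860 and 1.04 in si-NC and 1.64, 1.46 and 1.38 in si-STRIP2. This is a difference of 0.73 in log2 ratio, with no overlap (exact permutation test, 2-sided, p = 0.1, adjusted 0.25). The lack of overlap and the p-value follow from the separated rise of MBOAT1 and fall of MBOAT2 given above, so they are no separate evidence. LPCAT3 and MBOAT2 kept nearly the same ratio, 1.64 ± 0.0576 in si-NC against 1.65 ± 0.0370 in si-STRIP2 (SD, n = 3; 2-sided exact permutation p = 0.9, adjusted 0.9). With 1 library left out at a time, the difference in their log2 ratio lay between -0.015 and 0.032.

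**Figure D4:**
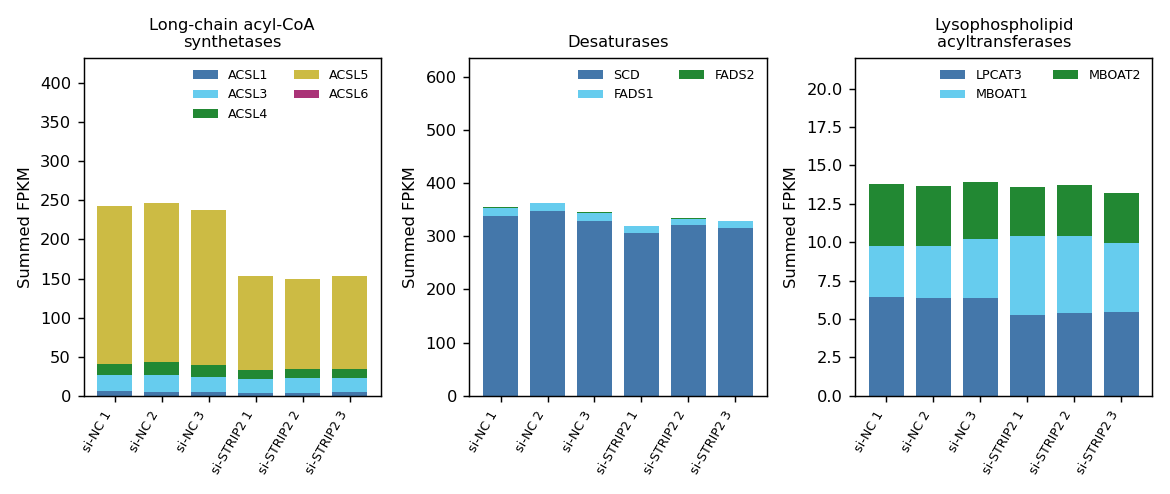
Summed FPKM per library (y axis, linear from 0; 6 bars per panel, coloured by gene) for the ACSL genes, the 3 desaturases and the 3 lysophospholipid acyltransferases. ACSL5 accounts for most of the drop in the first panel, and the third panel stays near 13.5 FPKM while the MBOAT1 part widens.

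The order of levels changed at 2 places. In si-NC it ran, by mean FPKM, SCD, ACSL5, ACSL3, ACSL4, FADS1, LPCAT3, ACSL1, MBOAT2, MBOAT1 and FADS2. The ranges of ACSL4 and FADS1 overlapped there, as did those of MBOAT2 and MBOAT1. In si-STRIP2 no neighbouring ranges overlapped, FADS1 stood above ACSL4, and MBOAT1 stood above both ACSL1 and MBOAT2, in seventh place. Both orders hold for the deposited exonic lengths only. These exceed the lengths in GENCODE 29 for ACSL3 (14436 against 7240 bases), ACSL4 (9971 against 6415) and MBOAT1 (4325 against 1794). The order with other lengths was not examined.

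Lists of other lipid genes were examined for context, and 123 of their 147 members had enough counts to be tested. Of these, 39 were higher and 39 lower, so 63.4% were called, beside 54.8% of all tested genes (27.8% higher and 27.0% lower), and their median log2 fold change was 0.043, beside 0.014 over all genes. The lists of other synthetases, of elongation and desaturation (8 of 16 called in each), of acyl-CoA binding (52.6%), of neutral lipids (61.5%) and of ether lipids (62.5%) lay nearest to that background. The other lists had 66.7% (transcriptional control), 76.5% (acyltransferases), 80% (peroxidation and release) and 88.9% (fatty acid synthesis) called, over 9 to 17 tested genes each. Among the 16 other acyl-CoA synthetases tested, 5 rose and 3 fell. ACSF3, a mitochondrial malonyl-CoA synthetase, rose from 1.97 ± 0.0819 to 2.49 ± 0.0862 FPKM (SD, n = 3, here and below; log2 fold change 0.33), and SLC27A6, a fatty acid transport protein with synthetase activity, fell from 5.86 ± 0.241 to 4.73 ± 0.611 FPKM (-0.32). In the elongation and desaturation list 3 of 16 rose and 5 fell. SCD5, the second human stearoyl-CoA desaturase, rose from 8.75 ± 0.0265 to 10.6 ± 0.370 FPKM (log2 fold change 0.27), in the opposite direction to SCD, and FADS3, next to FADS2 on chromosome 11, fell from 4.00 ± 0.248 to 3.07 ± 0.360 FPKM (-0.38). ELOVL6, which lengthens palmitate, fell by 0.15 on the log2 scale, while ELOVL5, which lengthens polyunsaturated chains, was at 0.07 (edgeR adjusted p = 0.173). Both were named after their values were seen.

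Other glycerophospholipid acyltransferases were called in 13 of 17 cases, 5 higher and 8 lower. GPAT2, which acylates glycerol phosphate, rose from 1.88 ± 0.0306 to 2.96 ± 0.0907 FPKM (log2 fold change 0.65), and LPCAT2, which acylates lyso-PAF and lysophosphatidylcholine, fell from 6.04 ± 0.196 to 3.98 ± 0.235 FPKM (-0.61). The other relatives of LPCAT3 by name, chosen after their values were seen, moved the other way: LPCAT1 had a log2 fold change of 0.49 and LPCAT4 of 0.58. MBOAT7, in the same list and also chosen after its values were seen, was at 0.09 (edgeR adjusted p = 0.227). The fatty acid synthesis list had a median of 0.27, with 6 of 9 tested genes higher and 2 lower. MCAT, of mitochondrial fatty acid synthesis, rose from 4.25 ± 0.212 to 6.01 ± 0.387 FPKM (log2 fold change 0.50). FASN (0.42), ACLY (0.31) and ACACA (0.31), the cytosolic enzymes that make palmitate and its precursors, also rose and were named after their values were seen. ME1, which supplies NADPH for the pathway, fell from 47.4 ± 1.01 to 34.7 ± 0.953 FPKM (-0.45).

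Of 15 transcriptional regulators tested, 4 rose and 6 fell. NR1H3, the LXR alpha receptor, for which SCD and LPCAT3 are known targets, rose from 1.48 ± 0.0379 to 2.12 ± 0.241 FPKM (log2 fold change 0.51). NR1H2, the more abundant LXR beta receptor, named after its values were seen, fell from 4.31 ± 0.248 to 3.57 ± 0.201 FPKM (-0.28). PPARA, for which ACSL1 is a known target, fell from 1.49 ± 0.0985 to 1.08 ± 0.0907 FPKM (-0.47). PPARG (-0.36) and PPARD (-0.27) also fell, SREBF2 was lower (-0.23), and SREBF1, the main sterol-response factor for fatty acid genes, was at 0.07 with an edgeR adjusted p of 0.233. These last 4 were named after their values were seen. The remaining called genes of the list were RXRB (0.46), MLX (0.39) and INSIG1 (0.36), which rose, and INSIG2 (-0.14), which fell. They too were named after their values were seen.

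In the list of phospholipid peroxidation and fatty acid release 5 of 10 rose and 3 fell. ALOX5, a lipoxygenase that acts on arachidonate, was at 1.25 ± 0.0839 FPKM in si-NC and 0.330 ± 0.118 in si-STRIP2 (log2 fold change -1.92). It met the naming threshold of 1 FPKM through si-NC alone, which favours a fall, so its place as the largest fall is a description. PLA2G4A, the phospholipase that releases arachidonate, rose from 4.82 ± 0.357 to 7.09 ± 0.561 FPKM (0.56). PEBP1, a lipoxygenase partner (0.45), and PRDX6, which reduces and cleaves oxidised phospholipids (0.48), also rose and were named after their values were seen. For ether phospholipid synthesis 3 of 8 rose and 2 fell, led by PEX5 (0.45) and PEX7 (-0.44), receptors that import peroxisomal enzymes. Among 19 genes of acyl-CoA binding, hydrolysis and entry into oxidation, 5 rose and 5 fell. ACOT7, a cytosolic acyl-CoA thioesterase, rose from 14.0 ± 0.315 to 22.1 ± 1.33 FPKM (0.65), and ACADM, of mitochondrial oxidation, fell from 7.66 ± 0.437 to 6.18 ± 0.125 FPKM (-0.31). In the neutral lipid list 3 of 13 rose and 5 fell. LPIN3, a phosphatidate phosphatase, rose from 1.88 ± 0.159 to 2.99 ± 0.0751 FPKM (0.67), while MGLL, monoglyceride lipase, was at 1.15 ± 0.0529 FPKM in si-NC and 0.513 ± 0.0252 in si-STRIP2 (-1.17) and likewise met the threshold through si-NC alone. SOAT1, which esterifies cholesterol and was named after its values were seen, fell from 11.1 ± 0.122 to 7.79 ± 0.260 FPKM (-0.52). The edgeR adjusted p of the genes named by rule from these lists was at most 0.00305, the value of SLC27A6.

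**Figure D5:**
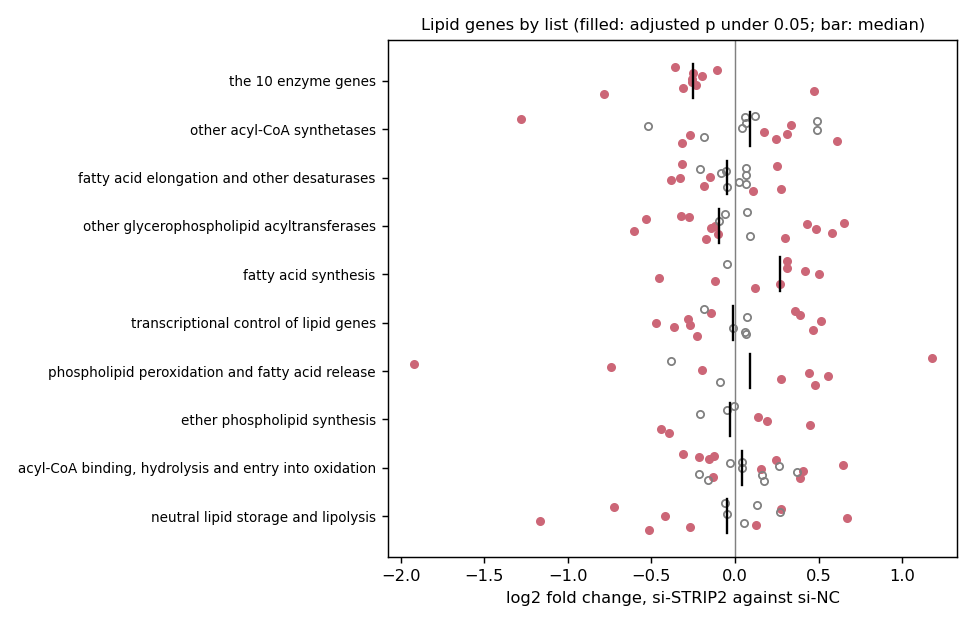
Log2 fold change of the 10 genes (top row) and of 123 tested genes in 9 lists of lipid metabolism (x axis; filled points have an edgeR adjusted p under 0.05, black bars are medians). The top row has 9 points left of 0 and a median of -0.25, the fatty acid synthesis row has a median of 0.27, and the other rows spread to both sides.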

How the data were processed

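Per the labels' protocols, total RNA was isolated with TRIzol, poly(A) RNA was selected and directional libraries were made. The submitters' processing notes name cutadapt 1.9.1, HISAT2 2.2.1, HTSeq 0.6.1 and the build GRCh38.p13; the strand setting and annotation release are not given in the sources used here. The deposited table gives a raw count per gene and library. The FPKM values that the authors deposited (fragments per kilobase of exonic size scaled to the library total) equal their own counts so scaled, within 0.005, their rounding. Of the 61806 rows, 0 named no gene.

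Main tests used edgeR 4.0.16 in R 4.3.3: filterByExpr (minimum count 10, 15687 genes kept), TMM scaling, a quasi-likelihood model with group as its term, a 2-sided F test and Benjamini-Hochberg adjustment over all tested genes. Calls are at an adjusted p under 0.05. Standard errors are the absolute log2 fold change over the square root of F. Levels, shares and ratios are from FPKM. Sums, shares and orders across genes thus rest on the deposited exonic lengths, which for some genes differ from those of GENCODE 29. Ratios of 5 gene pairs were compared by exact permutation (scipy 1.17.1). Code was tested on simulated data. Overlaps of exons are from GENCODE 29. Alternatives used DESeq2 1.42.0, limma 3.58.1 on log2(FPKM + 1) or log2(FPKM + 0.1), other scalings and filters, a replicate block and each library left out. By rule the text names the 10 genes, STRIP2 and genes overlapping the 10. In each of 9 lists the rule names the called genes with the largest rise and fall. Those needed a mean of 1 FPKM or more in whichever group was higher. Other genes of the lists were named after their values were seen and are marked so in the text. ACSL6 was named as the remaining ACSL family member. The members and lists were chosen with earlier results of these data known.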

Additional observations from a re-analysis of the deposited data

How the results depend on the processing

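Across 14 alternatives other than the 1.2-fold test, all 10 genes kept their direction, and 8 of them, ACSL1, ACSL3, ACSL4, ACSL5, FADS1, LPCAT3, MBOAT1 and MBOAT2, also kept their call. SCD lost it under 6 alternatives and FADS2 under 6, limma on FPKM among the latter (adjusted p = 0.131 and 0.143 with pseudocounts of 1 and 0.1). With 1 library left out at a time, 8 to 10 of the genes were called, 7 to 9 of them lower, and 7690 to 8494 of all genes. ACSL5 ranged from -0.80 to -0.76 and MBOAT1 from 0.38 to 0.54 on the log2 scale over the 14. In the test against 1.2-fold, 3723 genes were called (1780 higher, 1943 lower), 3 of the 10 among them, 2 lower, since it asks for a larger change. On the log2(FPKM + 1) scale the pseudocount shrank low genes: FADS2 was at -0.14, ALOX5 at -0.76, MGLL at -0.51, PPARA at -0.26 and NR1H3 at 0.33.

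Same-numbered libraries of the groups did not deviate together (correlations from -0.086 to -0.013). With 3 libraries per group this cannot show whether they were prepared together, and the labels do not say. With the replicate number as a block 8293 genes and 9 of the 10 were called, SCD being lost.

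With 1 library left out, the difference in log2 ratio ranged from -0.073 to 0.030 for FADS2 to FADS1 and from -0.015 to 0.032 for LPCAT3 to MBOAT2, so neither has a stable sign. It ranged from -0.19 to -0.14 for ACSL4 to ACSL3 and from 0.66 to 0.83 for MBOAT1 to MBOAT2. Shares of summed counts in place of FPKM, which weigh long genes more, moved by -8.88 percentage points for ACSL5, -4.15 for LPCAT3 and 0.634 for SCD, against -5.61, -6.54 and 0.351. EMG1 was at 0.10 without si-NC 1, at -0.0063 with a filter of at least 1 FPKM in 3 libraries, and at -0.045 and -0.019 without si-NC 2 or si-NC 3. Depth limits FADS2 most, which had 194 to 330 counts per library.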
